A study of Mus musculus with 42 samples.

Results

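A set of 9 genes of globin, haem and iron biology was followed through mouse skin carcinogenesis. They are the globin chains Hbb-b2 and Hba-a1, the haem enzymes Alas2 and Fech, the red-cell enzymes Car2 and Bpgm, the red-cell membrane proteins Slc4a1 and Epb42, and the iron hormone Hamp. The members were taken by the gene symbol of their probes, and all 9 were present on both array designs of the series, with 9 of the 21997 probes of the first design and 13 of the 36924 probes of the second. They are 9 of 14442 gene symbols on the first design and of 17501 on the second. Hbb-b2 was chosen by its higher level in high-risk papillomas and in carcinomas than in low-risk papillomas, and Hamp by its lower level in high-risk than in low-risk papillomas, so their values in those comparisons are described and not tested. The question asked of the data was whether Hbb-b2 moved together with the other genes of the red cell.

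The series holds 42 arrays on which 1 channel carried RNA of whole skin or tumour tissue and the other a commercial universal mouse reference RNA. Of these, 32 arrays of the first design carry a group in their labels, and 1 low-risk tumour was hybridised a second time with the dyes exchanged, which left 31 replicates. The groups were untreated normal skin of adult mice (6, with no strain, sex or age in the labels), papillomas labelled low risk (9), papillomas labelled high risk (10) and squamous cell carcinomas (6). All tumours came from female Sencar mice, a strain sensitive to skin carcinogens, that were initiated at 7 to 8 weeks of age and treated with DMBA, a mutagenic hydrocarbon, and TPA, a phorbol ester that promotes tumour growth. A further 10 papillomas of the same strain and treatment, labelled unknown, were hybridised to the second design and belong to no group. Some tumours carry the same animal or tumour code in their labels, so p-values measure the spread between these samples, which need not all be independent animals.

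Red blood cells carry oxygen on haemoglobin, a tetramer of alpha and beta globin chains that each hold a haem group with iron at its centre. Alas2 starts haem synthesis in red-cell precursors and Fech ends it by inserting the iron, while Slc4a1 and Epb42 build the red-cell membrane. Hamp encodes hepcidin, a peptide hormone made mainly in the liver that lowers the export of iron from cells. Whole tissue includes the blood in its vessels, and in such bulk samples fewer cells of a type and less RNA per cell cannot be told apart.

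The promoters of 5 of the 9 members were in the RefSeq table of GRCm38.p6, and those of an alpha globin, of the erythroid haem enzyme and of hepcidin are shown because they set the 3 roles side by side. Each run is the 250 bases before the annotated start, read 5′ to 3′ on the gene's strand. Hba-a1 lies at chr11:32283422-32283671 on the plus strand, Alas2 at chrX:150547167-150547416 on the plus strand and Hamp at chr7:30944030-30944279 on the minus strand. Capitals mark the motif GATAA (reverse complement TTATC), the motif CACCC (reverse complement GGGTG) and the motif CCAAT (reverse complement ATTGG) on either strand, and the motif TATAA on the forward strand. Overlapping matches run together.
Hba-a1: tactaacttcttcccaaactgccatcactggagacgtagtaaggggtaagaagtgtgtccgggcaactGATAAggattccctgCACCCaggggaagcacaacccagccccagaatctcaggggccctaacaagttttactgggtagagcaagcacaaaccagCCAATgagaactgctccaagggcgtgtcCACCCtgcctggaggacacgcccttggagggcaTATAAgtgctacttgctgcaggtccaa
Alas2: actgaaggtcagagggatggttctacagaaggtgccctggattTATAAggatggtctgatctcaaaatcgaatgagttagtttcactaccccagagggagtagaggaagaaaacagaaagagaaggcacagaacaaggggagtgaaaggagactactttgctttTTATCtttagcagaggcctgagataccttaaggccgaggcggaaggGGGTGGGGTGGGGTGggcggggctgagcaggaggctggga
Hamp: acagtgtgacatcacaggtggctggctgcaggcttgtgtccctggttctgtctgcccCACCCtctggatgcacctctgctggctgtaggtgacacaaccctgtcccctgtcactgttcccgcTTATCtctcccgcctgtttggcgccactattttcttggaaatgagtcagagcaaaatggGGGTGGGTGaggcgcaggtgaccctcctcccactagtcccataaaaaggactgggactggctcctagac

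The Hba-a1 window holds 1 GATAA, 2 CACCC, 1 CCAAT and 1 TATAA motif. The Alas2 window holds 1 GATAA, 3 CACCC and 1 TATAA, with no CCAAT. The Hamp window has 1 GATAA and 3 CACCC but neither of the other motifs. Of 2 more members in the table, the Bpgm window (chr6:34476106-34476355) has 3 CCAAT and none of the other motifs, and the Epb42 window (chr2:121036878-121037127) has 1 GATAA only. These short words are common: among 32851 promoter windows of the same length, 22.6% hold GATAA, 52% CACCC, 33.8% CCAAT and 16% TATAA. A match is a string of letters and not a measured binding site.

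Levels are given as log2 of sample over reference after each array was centred on its own median, so 0 is the array's typical probe and 1 unit is a doubling. The labels do not state the direction or the log base. Sample over reference is the likely direction after the sign of all arrays but the dye-swapped one was turned, because the deposited ratio of epidermal genes had a median below 0 on the 31 arrays where Cy3 marked the sample and above 0 on the swapped array, and base 2 was assumed. The labelled arrays measured 16286 to 21494 probes each. Epidermal markers were present in every group: with the direction taken from them, the mean of 14 genes read 0.93 to 1.99 in normal skin, 1.59 to 3.65 in low-risk papillomas, 1.08 to 3.61 in high-risk papillomas and 0.88 to 1.76 in carcinomas.

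Before the results, 3 features of the arrays bear on them. The arrays of normal skin 1 and carcinoma 6 were nearly the same, with r = 0.984 across 16718 probes and a median difference of 0.065 log2 units, against 0.177 for the next closest pair. The values without both are given for Hbb-b2, for the calls of the other members and for the correlations with Hbb-b2. The call of Hamp in low-risk papillomas over normal skin is the exception and has no such value here. The dye-swapped array correlated with its partner at only 0.306 across 19899 probes (genes are not independent replicates), and the 2 arrays read Hbb-b2 at -4.93 and -6.39. From their patterns of empty probes the arrays fell into 5 sets that were uneven over the groups, in that 6 low-risk papillomas made up set B, 4 high-risk papillomas set E, 4 normal skins and 1 high-risk papilloma set A, and only sets C and D held several groups with carcinomas. The SD of the log2 ratios on an array, called its spread below, ran from 0.45 to 1.95.

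Hbb-b2, an adult beta globin, was low in normal skin and low-risk papillomas and higher in high-risk papillomas and carcinomas. In normal skin its level was lowest at -6.03, with a median of -5.72 and a highest value of -3.20, which was that of normal skin 1. In low-risk papillomas it ran from -6.21 to -2.42 with a median of -5.24. In high-risk papillomas it ran from -3.81 to 0.25 with a median of -1.62, and in carcinomas from -3.40 to -0.38 with a median of -2.05. Only low-risk papillomas 4 and 8, at -2.42 and -2.43, and papilloma 2, at -3.98, reached near or into the range of the high-risk group, and high-risk papillomas 2, 3 and 7, at -0.04, 0.25 and 0.05, stood highest of all labelled samples. Every group overlapped another, but no carcinoma and no high-risk papilloma was as low as the median of normal skin or of low-risk papillomas.

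The mean level of Hbb-b2 was -4.61 ± 1.40 in low-risk (SD, n = 9), -1.68 ± 1.49 in high-risk papillomas (SD, n = 10) and -1.85 ± 1.21 in carcinomas (SD, n = 6), against -5.19 ± 1.08 in normal skin (SD, n = 6). The differences that led to its choice were a log2 difference of 2.94 ± 0.58 (SE), or 7.66-fold, between high-risk and low-risk papillomas and 2.77 ± 0.67 (SE), or 6.80-fold, between carcinomas and low-risk papillomas, and they are no test. Both were smaller, at 1.30 and 1.18, when all arrays were scaled to the same spread. High-risk papillomas were also above normal skin by 3.51 ± 0.66 log2 units (SE), 11.4-fold, with a limma adjusted p of 0.00235. Carcinomas were above normal skin by 3.34 ± 0.73 (SE), 10.2-fold, with a limma adjusted p of 0.0167. Both use the high-risk and carcinoma values by which the gene was chosen, so their p-values are not independent support. Low-risk papillomas differed from normal skin by 0.58, with a 95% interval from -0.79 to 1.94 (limma adjusted p = 0.654), and carcinomas from high-risk papillomas by -0.17, with an interval from -1.51 to 1.17 (limma adjusted p = 0.955).

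These comparisons share groups and are not independent of each other. With the array set as a block the difference of high-risk papillomas from normal skin was 2.04 and that of carcinomas 2.64, with limma adjusted p of 0.293 and 0.430, and both calls were lost. Without the near-identical pair they were 3.91 and 4.05. Leaving out carcinoma 1 or normal skin 6 raised the adjusted p of carcinomas against normal skin to 0.0620 and 0.0564. Within array set D, which holds 4 carcinomas and 3 low-risk papillomas, the carcinomas read -2.71 to -0.38 and the low-risk papillomas -5.50 to -4.51, and the single high-risk papilloma of the set read -2.88. These values are part of the difference by which the gene was chosen and are a description only. No low-risk papilloma lies in set E, the set of the 4 high-risk papillomas at -1.93 to 0.25, so in those arrays set and group cannot be told apart.

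**Figure D1:**
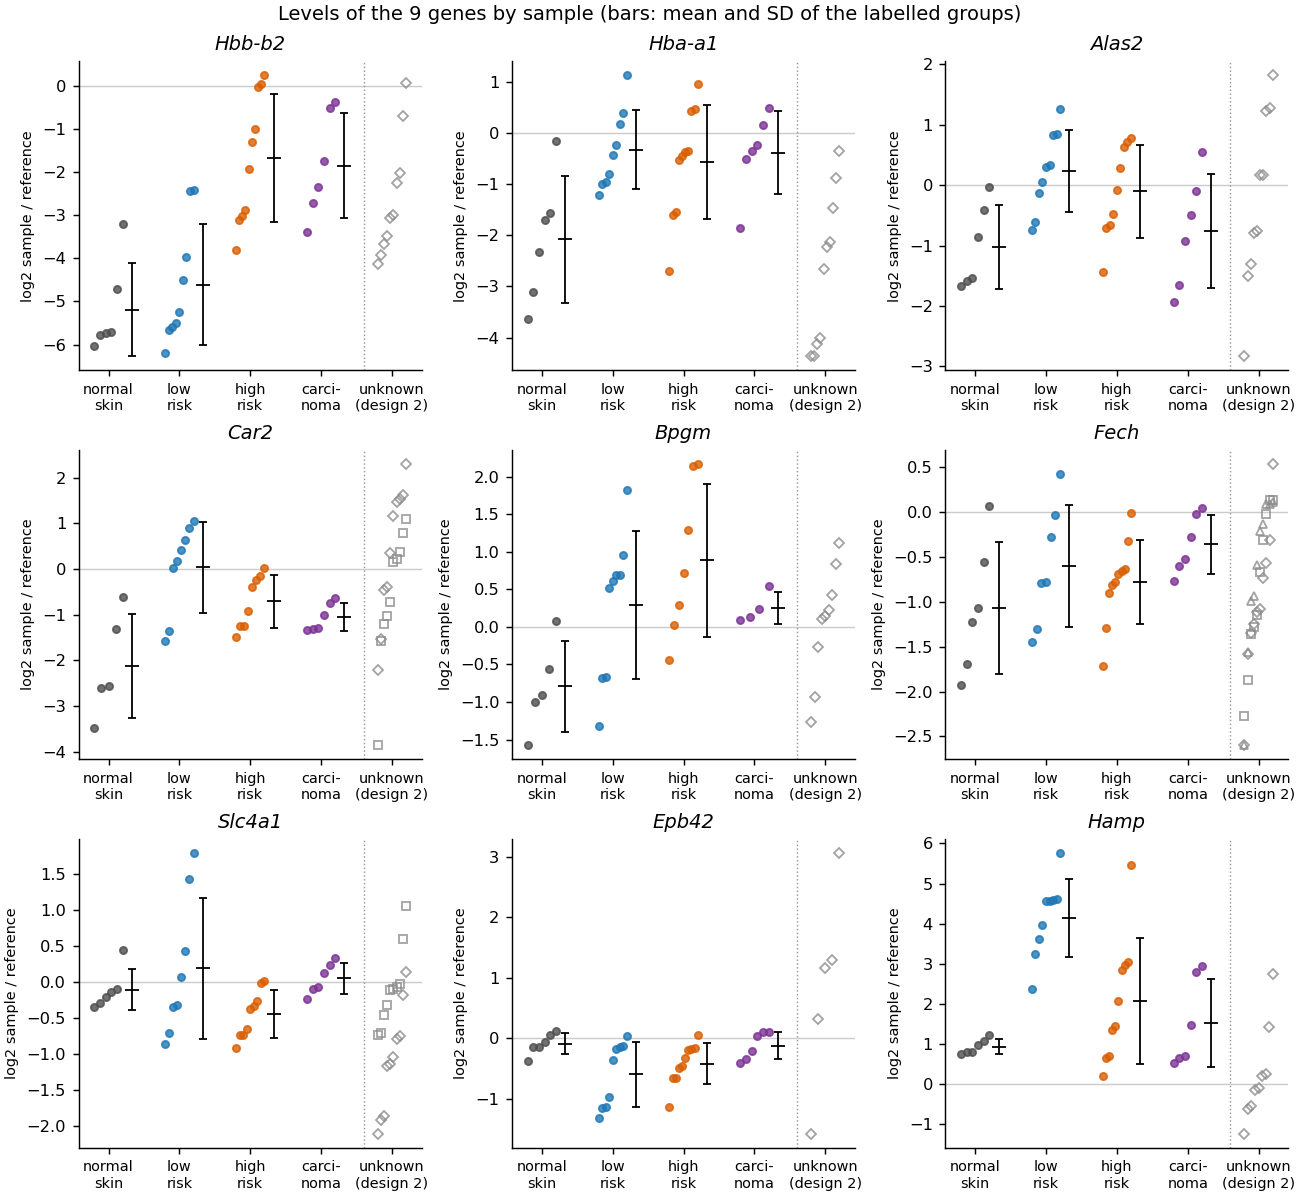
Level of each of the 9 genes in every sample, as log2 of sample over reference, for normal skin (n up to 6), low-risk papillomas (up to 9), high-risk papillomas (up to 10), carcinomas (up to 6) and, right of the dotted line, the unknown papillomas on the second array design (open symbols, 1 shape per probe). Bars are the mean and SD of each labelled group. Hbb-b2 is higher in high-risk papillomas and carcinomas than in normal skin and low-risk papillomas, though its medians there, -1.62 and -2.05, are below 0. Hba-a1 has its lowest mean in normal skin, and Hamp is highest in low-risk papillomas, none of which lies below 2.35.

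Hba-a1, the adult alpha globin and the partner chain in haemoglobin, was low in normal skin and at about 1 level in the 3 tumour groups. In normal skin it read -3.64 at the lowest, -2.01 at the median and -0.16 at the highest. In low-risk papillomas it ran from -1.22 to 1.13 around a median of -0.44, in high-risk papillomas from -2.70 to 0.96 around -0.42, and in carcinomas from -1.86 to 0.49 around -0.30. All groups overlapped, and the low-risk papillomas, which had the lowest Hbb-b2 among tumours, lay over the same range of Hba-a1 as the others.

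High-risk and low-risk papillomas differed in Hba-a1 by -0.24 ± 0.44 (SE), with a 95% interval from -1.13 to 0.65 (limma adjusted p = 0.804). Carcinomas differed from low-risk papillomas by -0.06, with an interval from -1.08 to 0.96 (limma adjusted p = 0.968). Hbb-b2 differed by 2.94 and 2.77 in the same comparisons. The intervals of Hba-a1 end below the Hbb-b2 differences, but whether the 2 globins differ in their change was not tested, since Hbb-b2 was chosen by it. Against normal skin, Hba-a1 rose in low-risk papillomas by 1.75 ± 0.50 (SE), 3.37-fold, with a limma adjusted p of 0.0280. In high-risk papillomas it was 1.51 ± 0.49 (SE) above normal skin and in carcinomas 1.69 ± 0.55 (SE), with limma adjusted p of 0.0676 and 0.140.

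The Hba-a1 calls against normal skin depended on single arrays. Without normal skin 2, 4 or 6 the low-risk rise had an adjusted p of 0.0516, 0.0837 and 0.100. Without normal skin 1, the sample nearly the same as carcinoma 6, the high-risk and carcinoma differences became 1.90 and 2.08 with limma adjusted p of 0.0140 and 0.0257, and without high-risk papilloma 4 the high-risk difference became 1.75 with 0.0313. With the array set as a block the low-risk difference was 1.11 and not called, and without the near-identical pair it was 2.14 (limma adjusted p = 0.00725). The probes of the first design name neither Hbb-b1 nor Hba-a2, the near-identical neighbours of these genes, so what a globin probe reads cannot be assigned to 1 gene copy.

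The other globin genes of the first design are embryonic or minor chains. Hba-x rose in high-risk papillomas above normal skin by 1.29 ± 0.36 (SE), with a limma adjusted p of 0.0343, from a mean of -2.53 ± 0.76 (SD, n = 6) to -1.24 ± 0.92 (SD, n = 10) at the probe tested. Over the list of 5 globin genes 2 were called in that comparison, Hbb-b2 and Hba-x. Between tumour groups none of the other 4 was called. Hbb-y read -3.51 ± 0.97 in normal skin and -2.84 ± 2.26 in high-risk papillomas, and Hbb-bh2 1.35 ± 0.41 and 2.62 ± 1.31 (SD, n = 6 and 10 for both), and neither was called.

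Of the 7 members not chosen by their difference between high-risk and low-risk papillomas, none was called there by limma (1, Slc4a1, at an unadjusted p under 0.05), while 0.667% of the 18904 probes were. Carcinomas against low-risk papillomas gave 1 of 8, which was Hamp, lower, against 1.12% of all probes called and 0.767% called lower. Hamp was chosen by values of the same low-risk papillomas, and of the other 7 none was called by limma (3 at an unadjusted p under 0.05). Carcinomas against high-risk papillomas gave 0 of 9 (also 0 at an unadjusted p under 0.05 in limma) against 0.0423%. Against normal skin 8 of 9 differences in low-risk papillomas were above 0 and 4 were called higher, or 3 of 8 without Hamp, with 7.55% of all probes called and 3.94% called higher. High-risk papillomas had 2 of 9 called higher, Hbb-b2 and Bpgm, or 1 of 8 without Hbb-b2, which was chosen by its high-risk and carcinoma values, against 5.01% called in all and 2.57% called higher. Carcinomas had 1 of 9, Hbb-b2, or 0 of the other 8 by limma (3 at an unadjusted p under 0.05), against 1.16% called in all and 0.254% called higher. For the group comparisons no share of all probes at an unadjusted p under 0.05 is given. The counts of members at that threshold thus have no background to be read against. The median difference of the 9 members was 1.09 in low-risk papillomas, 1.14 in high-risk papillomas and 0.71 in carcinomas, against -0.02, 0.00 and 0.00 over all probes tested, and these 3 comparisons share the same normal skins. These medians include Hbb-b2 and Hamp, chosen by values of the same tumours, and the high-risk median is the Hamp difference itself. They are thus no independent support for a shift of the set.

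Alas2, the erythroid enzyme of the first step of haem synthesis, was highest in low-risk papillomas. It read -1.68 to -0.03 in normal skin with a median of -1.20, -0.74 to 1.26 in low-risk papillomas with a median of 0.30, -1.43 to 0.79 in high-risk papillomas with a median of -0.07, and -1.94 to 0.54 in carcinomas with a median of -0.71. All groups overlapped. The rise from normal skin to low-risk papillomas was 1.26 ± 0.39 (SE), 2.39-fold, with a limma adjusted p of 0.0450, and the adjusted p was above 0.05 in 12 of the 31 refits that left out 1 sample, those without normal skin 3, 4, 5 or 6 (0.119, 0.0712, 0.116 and 0.112), low-risk papilloma 1, 2, 5, 7 or 8 (0.0583, 0.0566, 0.0804, 0.0560 and 0.0811), high-risk papilloma 8 (0.0504) and carcinoma 1 or 4 (0.0505 and 0.0516). With the array set as a block the difference was 0.68 and with the database number range as a block 1.15 (limma adjusted p = 0.917 and 0.0854), within set D it was 0.06, and without the near-identical pair 1.46 (limma adjusted p = 0.0240). Between carcinomas and low-risk papillomas, where Hbb-b2 was higher, Alas2 differed by -1.0 ± 0.39 (SE, limma adjusted p = 0.192).

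Car2, a carbonic anhydrase abundant in red cells and also made by other tissues, had the largest rise of the enzymes. Its level ran from -3.49 to -0.62 in the 5 normal skins measured, with a median of -2.57. In 8 low-risk papillomas it ran from -1.58 to 1.04 with a median of 0.30, in 8 high-risk papillomas from -1.49 to 0.01 with a median of -0.66, and in the 6 carcinomas from -1.33 to -0.63 with a median of -1.15. Low-risk papillomas were above normal skin by 2.15 ± 0.44 (SE), 4.45-fold, with a limma adjusted p of 0.00395, which stayed under 0.05 in all 31 refits without 1 sample. With the array set as a block the difference was 1.96 and with the database number range as a block 1.24, and the call was lost in both (limma adjusted p = 0.677 and 0.0569). Without the near-identical pair it was 2.36 (limma adjusted p = 0.00276). High-risk papillomas were above normal skin by 1.41 ± 0.44 (SE, limma adjusted p = 0.0610), and below low-risk papillomas by an amount that was not called, -0.74 ± 0.39 (SE, limma adjusted p = 0.323).

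Bpgm, which makes the bisphosphoglycerate that loosens the hold of haemoglobin on oxygen, was higher in high-risk papillomas. Its level was -1.57 to 0.08 in 5 normal skins with a median of -0.90, -1.33 to 1.82 in 9 low-risk papillomas with a median of 0.62, -0.45 to 2.17 in 7 high-risk papillomas with a median of 0.72, and 0.09 to 0.55 in 4 carcinomas with a median of 0.19. Carcinomas and normal skin did not overlap, as was so for 4.01% of all probes, and their difference of 1.05 ± 0.55 (SE) had a limma adjusted p of 0.511. The rise in high-risk papillomas over normal skin was 1.68 ± 0.48 (SE), 3.20-fold, with a limma adjusted p of 0.0416, and it was lost without any 1 of normal skin 3, 4, 5 or 6 (0.0785, 0.0937, 0.127 and 0.104), high-risk papilloma 1, 2, 3 or 4 (0.0591, 0.0748, 0.0933 and 0.0910) or carcinoma 4 (0.0501). With the array set as a block the difference was 0.43 and with the database number range as a block 0.56 (limma adjusted p = 0.829 and 0.567). Normal skin 1 and carcinoma 6, the near-identical pair, have no Bpgm value. Leaving them out kept the difference at 1.68 (limma adjusted p = 0.0334) and is no check of it. The 4 high-risk papillomas of set E read 0.72 to 2.17 and the 3 in other sets -0.45, 0.03 and 0.29. High-risk and low-risk papillomas differed by 0.59 ± 0.42 (SE, limma adjusted p = 0.470).

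Fech, Slc4a1 and Epb42 were called in none of the 6 comparisons. Fech, ferrochelatase, read a mean of -1.07 ± 0.73 in normal skin (SD, n = 6), -0.60 ± 0.68 in low-risk papillomas (SD, n = 7), -0.78 ± 0.47 in high-risk papillomas (SD, n = 10) and -0.36 ± 0.33 in carcinomas (SD, n = 6). Its greatest difference was carcinomas over normal skin, 0.71 ± 0.33 (SE, limma adjusted p = 0.391). Slc4a1, the band 3 anion exchanger of the red-cell membrane, stayed near the array median, at -0.11 ± 0.29 in normal skin (SD, n = 6), 0.19 ± 0.97 in low-risk papillomas (SD, n = 8), -0.44 ± 0.33 in high-risk papillomas (SD, n = 9) and 0.05 ± 0.22 in carcinomas (SD, n = 6). Where Hbb-b2 was higher, between high-risk and low-risk papillomas, Slc4a1 differed by -0.63 ± 0.28 (SE, limma adjusted p = 0.239). Epb42, protein 4.2 of the membrane skeleton, read -0.09 ± 0.18, -0.60 ± 0.54, -0.42 ± 0.34 and -0.12 ± 0.23 in the same order of groups (SD, n = 6, 9, 10 and 6), with -0.51 ± 0.21 (SE) between low-risk papillomas and normal skin (limma adjusted p = 0.142).

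The wider lists of red-cell genes were read against the 7.55% of all probes called in low-risk papillomas over normal skin. Of 13 genes of haem synthesis only Alas2 was called, in low-risk papillomas over normal skin. Of 20 genes of red-cell membrane and enzymes 2 were called there, Car2 and Xk, a membrane protein of the Kell complex that rose by 1.16 ± 0.33 (SE, limma adjusted p = 0.0301), and Bpgm in high-risk papillomas over normal skin. None of the 20 was called between tumour groups. Among 13 genes of haem transport and breakdown, Slc48a1, a haem transporter, rose in low-risk papillomas over normal skin by 2.30 ± 0.60 (SE, limma adjusted p = 0.0204). Blvrb, a biliverdin reductase, was higher in carcinomas than in low-risk papillomas by 0.92 ± 0.24 (SE, limma adjusted p = 0.0482). Of 15 erythroid regulators only Gata2, a factor of blood stem cells and mast cells, was called, lower than normal skin by -1.57 ± 0.36 in low-risk and -1.69 ± 0.41 in high-risk papillomas (SE, limma adjusted p = 0.00832 and 0.0174). Gata1 and Klf1, the main factors of red-cell precursors, read 0.45 ± 0.38 and -0.64 ± 1.02 in high-risk papillomas (SD, n = 10 and 8) and 0.05 ± 0.18 and -0.20 ± 0.42 in normal skin (SD, n = 5 and 6).

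Hamp, like Hba-a1, Alas2 and Car2, had its highest mean in low-risk papillomas and its lowest in normal skin. In normal skin it read 0.75 at the lowest, 0.88 at the median and 1.22 at the highest. In low-risk papillomas it ran from 2.35 to 5.77 around a median of 4.56, in high-risk papillomas from 0.18 to 5.47 around 1.76, and in carcinomas from 0.53 to 2.94 around 1.08. No low-risk papilloma overlapped normal skin, as was so for 1.82% of all probes. High-risk papillomas were spread most, with papilloma 5 at 5.47 and papillomas 6, 7 and 9 at 0.64, 0.69 and 0.18, below every normal skin.

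Low-risk papillomas were above normal skin in Hamp by 3.21 ± 0.58 log2 units (SE), 9.26-fold, with a limma adjusted p of 0.00103. Carcinomas were below low-risk papillomas by a log2 difference of -2.63 ± 0.58 (SE), 6.19-fold, with a limma adjusted p of 0.0208. Both use the low-risk values by which the gene was chosen, so their p-values are not independent support. High-risk papillomas were below low-risk papillomas by -2.07 ± 0.51 (SE), 4.21-fold, the value that led to the choice of the gene. High-risk papillomas and carcinomas differed from normal skin by 1.14 ± 0.57 and 0.58 ± 0.64 (SE, limma adjusted p = 0.264 and 0.855), and from each other by -0.56 ± 0.57 (SE, limma adjusted p = 0.754). The carcinoma call was lost without carcinoma 3, 5 or 6 (limma adjusted p = 0.0752, 0.0563 and 0.0507), without the near-identical pair (0.0541), and when all arrays were scaled to the same spread, where the difference was -1.55 (0.263).

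The level of Hamp also moved with the spread of the array. Over the 31 replicates its level and the array SD correlated at r = 0.655 and rho = 0.756 (permutation p = 8e-05 and 1e-05, the second the smallest that 100000 resamples can give), and at r = 0.636 without the 2 arrays farthest from the median spread. The median spread was 1.39 in low-risk and 1.25 in high-risk papillomas, 0.94 in normal skin and 0.88 in carcinomas. These permutations ignored group, and Hamp was chosen by its low-risk values. The p-values over all samples, also once adjusted, thus cannot tell spread from group. Within groups r was 0.791 in normal skin, 0.025 in low-risk papillomas, 0.572 in high-risk papillomas and 0.738 in carcinomas (permutation p = 0.0708, 0.95, 0.0763 and 0.0639, exact for the groups under 10). With the array SD as a covariate the difference of carcinomas from low-risk papillomas was -1.71 (limma adjusted p = 0.310). With the array set as a block it was -1.43, that of high-risk from low-risk papillomas was -0.42 and that of low-risk papillomas from normal skin 1.51 (limma adjusted p = 0.789). Within array set D the single high-risk papilloma was higher than the 3 low-risk papillomas by 1.84. Hbb-b2 showed r = -0.080 and Hba-a1 r = -0.116 with the array SD over all 31 (permutation p = 0.665 and 0.537). Within normal skin they showed r = -0.809 and r = -0.882 (exact permutation p = 0.0417 and 0.025, n = 6), so there both globins were lower on the arrays of wider spread, and without normal skins 1 and 3 r was -0.143 and -0.919. In the tumour groups r was -0.013 to 0.243 for Hbb-b2 and -0.436 to -0.301 for Hba-a1. In all, 15 relations with the array SD were computed, 5 for each of the 3 genes, and after Benjamini-Hochberg adjustment the permutation p of r was 0.0012 for Hamp over all samples and at least 0.188 for the others.

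**Figure D2:**
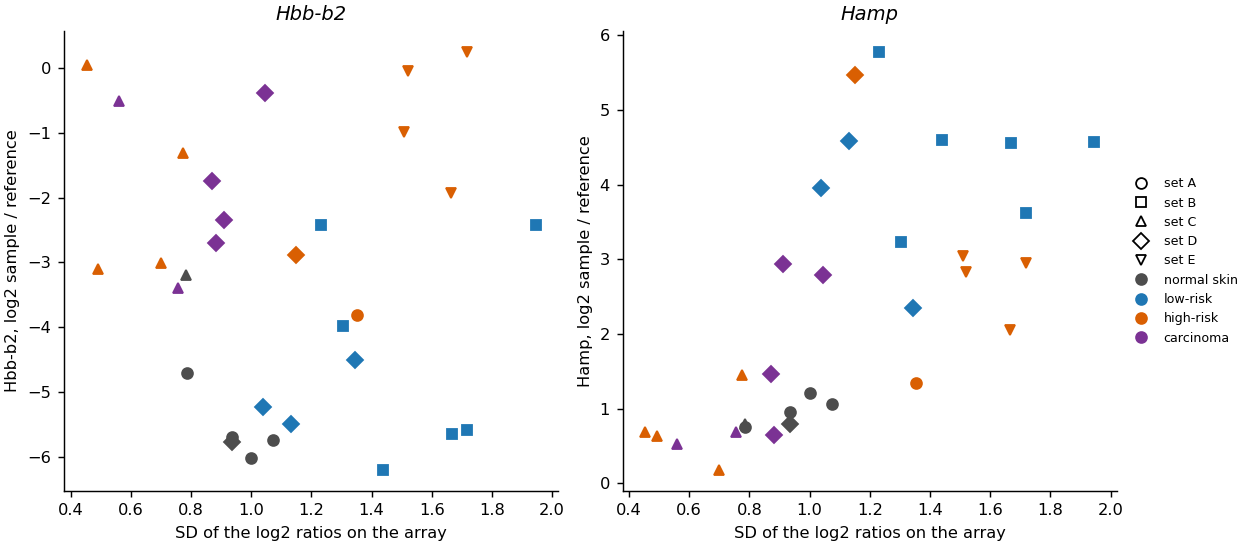
Level of Hbb-b2 (left) and Hamp (right), as log2 of sample over reference, against the SD of the log2 ratios on the array, 1 point per replicate; colour gives the group and shape the array set. Over all points r is -0.080 for Hbb-b2 and -0.809 within normal skin, while Hamp is low on the arrays of smallest spread, which form set C and read at most 1.45, and r is 0.655.

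The genes around hepcidin were its inducers and their targets, the iron genes and markers of the liver. Of 18 inducers of hepcidin and their targets only Id1, a target of BMP signalling, was called, above normal skin by 1.54 ± 0.28 in low-risk and 1.25 ± 0.28 in high-risk papillomas (SE, limma adjusted p = 0.00116 and 0.00778). None of 14 hepatocyte genes was called in any comparison. Of 26 genes of iron uptake, storage and export, Ftl1, the ferritin light chain that stores iron, was higher in carcinomas than in low-risk papillomas by 1.89 ± 0.36 and than in normal skin by 1.89 ± 0.38 (SE, limma adjusted p = 0.00914 and 0.0107). Trf, transferrin, was lower in the 5 high-risk papillomas where it was measured than in low-risk papillomas by -4.83 ± 1.13 and than in normal skin by -5.48 ± 1.28 (SE, limma adjusted p = 0.0455 and 0.0151), and its levels there ran from -11.03 to -1.53. Slc40a1, ferroportin, the iron exporter that hepcidin acts on, was lower in high-risk papillomas than in normal skin by -1.19 ± 0.36 (SE, limma adjusted p = 0.0457). Cp and Steap4, which oxidise and reduce iron, were lower there by -1.54 ± 0.34 and -1.39 ± 0.33 (SE, limma adjusted p = 0.00750 and 0.0129), Cp also in carcinomas by -1.49 ± 0.38 (SE, limma adjusted p = 0.0424), and Aco1, the iron-sensing aconitase, was higher in low-risk papillomas by 0.88 ± 0.27 (SE, limma adjusted p = 0.0404).

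Whether the members moved with Hbb-b2 was asked within groups, by a limma fit of each probe on the group and the Hbb-b2 level, which the choice of Hbb-b2 by its group means did not use. Of the 8 other members none was called, while 3 of 18903 probes, or 0.0159%, were. At an unadjusted p under 0.05 there were 2 of 8 members, both with a positive slope, against 11.3% of probes in either direction and 6.65% with a positive slope. Hba-a1 had the steepest slope, 0.35 ± 0.12 log2 units per unit of Hbb-b2 (SE), with a 95% interval from 0.10 to 0.60 and a limma adjusted p of 0.353. Fech had 0.19 ± 0.08 (SE), from 0.03 to 0.34, with a limma adjusted p of 0.386. Bpgm, Car2, Hamp and Alas2 had slopes of 0.19, 0.17, 0.15 and 0.07 and Slc4a1 and Epb42 of -0.06 and -0.05, each with an interval that includes 0 (limma adjusted p = 0.580 to 0.827).

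**Figure D3:**
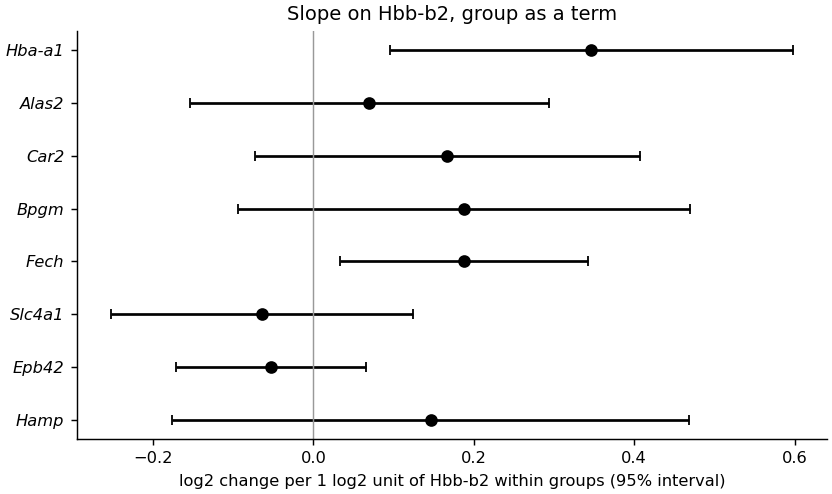
Slope of each of the 8 other members on the level of Hbb-b2 within groups, in log2 units per log2 unit, with its 95% interval (bars), over 25 to 31 replicates. The intervals of Hba-a1 (0.10 to 0.60) and Fech (0.03 to 0.34) lie above 0, and the other 6 include it.

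Without the group term, Hba-a1 and Hbb-b2 correlated over the 31 replicates at r = 0.469 and rho = 0.461 (permutation p = 0.00766 and 0.00943), and at 0.421 without high-risk papillomas 3 and 7, the samples farthest from the median Hbb-b2. The limma adjusted p of that relation over all probes was 0.0972. The relation was positive in all 4 groups and in the 3 array sets with at least 6 replicates. By group r was 0.843 in normal skin, 0.337 in low-risk papillomas, 0.434 in high-risk papillomas and 0.396 in carcinomas. By set it was 0.432, 0.516 and 0.364 in B, C and D. Groups and sets are cuts of the same 31 replicates, so these signs are not independent of each other. Without the 2 samples farthest from the median Hbb-b2 of each set, r was 0.901, -0.066 and 0.037 in B, C and D. The positive sign in set C and most of the r in set D thus rested on 2 samples each. In the groups r stayed at 0.26 to 0.40 without 2 such samples. With no sample left out, only the value in normal skin had an exact p under 0.05 (0.0292). There r was 0.396 without normal skins 1 and 3, while both genes were lower on arrays of wider spread in that group (r = -0.809 and -0.882). The part of the spread in their relation was not tested. Among the other members, Bpgm correlated with Hbb-b2 over all samples at r = 0.515 and rho = 0.494 (permutation p = 0.00904 and 0.0131, n = 25) and Fech at 0.412 and 0.402 (permutation p = 0.0265 and 0.0312, n = 29). Alas2 and Car2 correlated at 0.078 and 0.179, Slc4a1, Epb42 and Hamp at -0.275, -0.072 and -0.097. The p-values over all samples take no account of group. They thus include the group differences by which Hbb-b2 was chosen and are not independent support. Within low-risk and high-risk papillomas the r of Bpgm was 0.169 and 0.484, and within sets B and D 0.356 and -0.364. In all 64 relations with Hbb-b2 were computed on the first design, 8 over all samples, 8 without the near-identical pair and 48 within groups or sets, 3 of the 48 with a p under 0.05. The smallest permutation p after Benjamini-Hochberg adjustment over the 64 was 0.0981. Without the near-identical pair Hba-a1, Bpgm and Fech correlated at 0.474, 0.515 and 0.450, and the other 5 at -0.275 to 0.179. The Bpgm value could not change, because neither sample of the pair has a Bpgm value. Of the 3 relations within groups or sets with a p under 0.05, that of Hba-a1 in normal skin was positive. The other 2 were negative, Epb42 in carcinomas (r = -0.960, exact p = 0.00417) and Car2 in set D (r = -0.878, exact p = 0.00563).

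**Figure D4:**
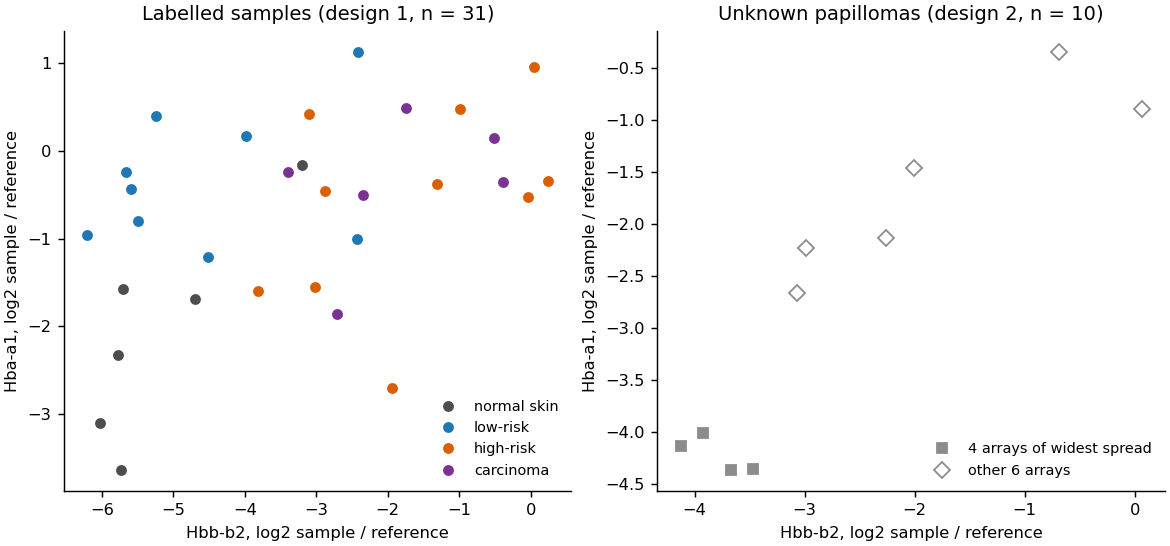
Level of Hba-a1 against that of Hbb-b2, both as log2 of sample over reference, for the 31 labelled replicates (left, coloured by group) and the 10 unknown papillomas on the second array design (right, filled squares for the 4 arrays of widest spread). On the left r is 0.469 and the low-risk papillomas lie at lower Hbb-b2 but like Hba-a1 to the high-risk ones; on the right r is 0.901 over the 6 open points.

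The genes most like Hbb-b2 once group means were removed were mostly no red-cell genes. Among 4209 genes measured in all 31 replicates the highest within-group correlations were those of Rwdd2b (0.70), Idh2 (0.69) and Abhd1 (0.68), followed by the embryonic alpha-like globin Hba-x (0.67). Trbv13-2, Mirt1, Krt4, Atg2b, Tomm22 and Mcpt-ps1 came next, at 0.66 to 0.61. Hba-a1 ranked 165 at 0.47, Hamp 1585 at 0.17 and Epb42 3510 at -0.19, and the other members were not measured in all 31. The lowest were Nme6 and 4930579K19Rik at -0.62, Flt1 at -0.53 and Srsf1 and Zfp536 at -0.52. In the fit with group, Hba-x had a slope of 0.36 ± 0.08 (SE, limma adjusted p = 0.139), Hbb-bh2 of 0.41 ± 0.12 (0.345) and Hbb-y of 0.28 ± 0.20 (0.593), so all 4 other globins tested on the first design had positive slopes and none was called.

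No gene of the 12 lists was called in the association with Hbb-b2. The smallest p were those of Hba-x, at a slope of 0.36 (limma adjusted p = 0.139), and Icam4, a red-cell adhesion molecule, at -0.86 (0.140). Then came Trf at -1.09, Gp1bb, a platelet receptor chain, at 0.44, Hbb-bh2 at 0.41 and Tal1, an erythroid and endothelial regulator, at -0.49 (limma adjusted p = 0.345 for all 4), so slopes of both signs were among them. The ferritin chains Fth1 and Ftl1 had 0.23 and 0.22 (0.371 and 0.400). Of the cell types that come with blood, platelet markers had a median slope of -0.08 over 9 genes, leukocyte markers of -0.05 over 13 and endothelial markers of -0.07 over 13, against -0.002 for all probes. The mean level of 11 platelet genes ran from -0.06 to 0.25 in normal skin, -0.82 to 1.22 in low-risk papillomas, -0.07 to 0.46 in high-risk papillomas and 0.02 to 0.61 in carcinomas. That of 16 leukocyte genes ran from -0.21 to 0.19, -0.01 to 1.12, -0.76 to 0.51 and 0.27 to 1.28 in the same order, and that of 13 endothelial genes from -0.04 to 0.23, -0.43 to 0.52, -0.52 to 0.33 and -0.12 to 0.26. Of 9 platelet genes only Ppbp, a platelet chemokine, was called. It was higher in carcinomas than in low-risk papillomas by 2.67 ± 0.29 and than in high-risk papillomas by 2.02 ± 0.31 (SE, limma adjusted p = 5.165e-05 and 0.0143). Over normal skin it was higher by 0.90 ± 0.27 in low-risk papillomas, 1.55 ± 0.30 in high-risk papillomas and 3.57 ± 0.33 in carcinomas (SE, limma adjusted p = 0.0445, 0.00408 and 1.555e-06). High-risk and low-risk papillomas differed by 0.65 ± 0.26 (SE, limma adjusted p = 0.194). The part of these cells in the Hbb-b2 difference was not tested.

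In the unknown papillomas, whose arrays are of the second design and were normalised apart from the first, Hbb-b2 ran from -4.13 to 0.06. From unknown papilloma 1 to 10 it read -2.26, -3.67, 0.06, -4.13, -3.47, -3.93, -3.07, -2.01, -0.69 and -2.98. Hba-a1 read -2.13, -4.36, -0.89, -4.13, -4.35, -4.01, -2.66, -1.46, -0.35 and -2.23. Hbb-b1, the other adult beta globin and no member, which has a probe here, read -2.39, -3.95, 0.15, -2.78, -4.07, -4.02, -2.93, -1.16, -0.11 and -1.63. Papillomas 3 and 9 were highest and 2, 4, 5 and 6 among the 5 lowest for all 3 globins. Hbb-b1 and Hbb-b2 are near-identical, so here too what a globin probe reads cannot be assigned to 1 gene copy.

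The papillomas lay in separate clusters by Hba-a1, and the low cluster, papillomas 2, 4, 5 and 6, was that of the widest arrays, with an SD of 1.73 to 2.39 against 1.14 to 1.499 for the others. Over the other 6, Hba-a1 correlated with Hbb-b2 at r = 0.901 and rho = 0.943 (exact permutation p = 0.0139 and 0.0167), and Hbb-b1 with Hbb-b2 at 0.900 and 0.943 (exact permutation p = 0.0236 and 0.0167). These p-values are not adjusted for the other probes set against Hbb-b2 on this design. Over all 10 papillomas r was 0.91 for Hba-a1 and 0.90 for Hbb-b1. By that r they ranked 9 and 17 among 17704 probes, below Tnfrsf8 (0.97), Ube4b (0.95) and Mchr1 (0.94) among others. Hba-x went the other way, at r = -0.610 and rho = -0.667 over the 8 papillomas measured (exact permutation p = 0.11 and 0.0831). Over the same 6 its r was -0.258 (exact permutation p = 0.604). In a limma fit over all 10, chosen after these values were seen, Hba-a1 had a slope of 0.98 ± 0.17 (SE), with a 95% interval from 0.61 to 1.34, and Hbb-b1 of 1.01 ± 0.18 (SE). Their adjusted p over 34902 probes was 0.420 for both, and 0% of those probes were called, 11.8% at an unadjusted p under 0.05. With the array SD as a covariate the slopes were 0.70 ± 0.18 and 0.90 ± 0.24 (SE, limma adjusted p = 0.999).

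None of the remaining members was called in the fit of the unknown papillomas. The slope of Alas2 on Hbb-b2 was 0.18 ± 0.32, those of the 3 Fech probes 0.01, 0.14 and -0.07, those of the Slc4a1 probes 0.09 and -0.07, and that of Bpgm, measured in 9, -0.03 ± 0.26 (SE). Both Car2 probes had negative slopes, -0.61 ± 0.28 and -0.53 ± 0.28 (SE), with limma adjusted p of 0.425 and 0.460. Alas2 ran from -2.83 to 1.82, Bpgm from -1.26 to 1.12, the Car2 probes from -2.22 to 2.30 and -3.86 to 1.09, and Epb42, measured in 5, from -1.58 to 3.07. Hamp, measured in 9, ran from -1.25 to 2.75 with a median of -0.10, and papillomas 6 and 2 were highest at 2.75 and 1.40. Its slope on Hbb-b2 was -0.28 ± 0.28 (SE, limma adjusted p = 0.669).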

How the data were processed

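The deposited values are ratios of the 2 channels of each spot on a log scale, taken as log2, from oligonucleotide arrays, made by the authors; background correction, normalisation and spot filters are not given in the sources used here. Cy5 marked the reference on all arrays but 1, per the labels, so the sign was turned on those. Each array was centred on its median, and 2 arrays of 1 low-risk tumour, a dye swap by their labels, were averaged. Array number limits the precision.

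Symbols came from the platform annotation. On the first design 16076 probes had 1 symbol, 288 several and 5633 none, and 15877 of the first matched RefSeq by gene ID; on the second 26926, 203 and 9795, with 26774 matched. A probe was tested when measured in at least 3 replicates of each group and 70% of the 31, and 1 probe per symbol was kept, which left 18904 probes, 13465 with a symbol. All 9 members passed.

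The 6 comparisons of the 4 groups were fitted with limma 3.58.1 in R 4.3.3 (lmFit, contrasts, eBayes) in 1 model, with Benjamini-Hochberg adjustment over all probes and a call at an adjusted p under 0.05. A second fit held the group and the Hbb-b2 level. Correlations have 2-sided permutation p (100000 resamples, exact under 10 samples). Array sets came from clustering the patterns of empty probes. Named genes are the 9 members, the 10 genes most and 5 least correlated with Hbb-b2, and from each of 12 lists those called or of smallest p. The members, lists and tests were chosen with earlier results of these data known. On simulated data of 18904 probes the contrast of the high-risk and low-risk groups recovered 33% of probes changed by 1 log2 unit and 86% of those changed by 2, and the association 75% of slopes of 0.5 and 97% of slopes of 1. The simulated noise was independent between probes and held no array sets, and many probes were changed at once. Recovery of a single gene in the measured data may be lower. The alternatives were other scalings, filters, blocks and weights, and leaving out each replicate.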

Additional observations from a re-analysis of the deposited data

Results flagged for a closer look

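Slc4a1 in normal skin 5 stood apart from the other normal skins. Its level was 0.44 against -0.10 in the nearest sample and a lowest value of -0.35. It was the only such value among 36 groups of 4 to 10 samples, where chance gives about 1 in 20.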

How the results depend on the processing

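Hbb-b2 kept the sign of its differences of high-risk papillomas and carcinomas from low-risk papillomas and from normal skin under all alternatives run. The gene was chosen by its high-risk and carcinoma values on these same arrays, so the kept sign is no independent support. When arrays were scaled to equal spread its difference from low-risk papillomas fell to 1.30 in high-risk papillomas and 1.18 in carcinomas, and carcinomas exceeded normal skin by 3.18 (limma adjusted p = 0.0745). The calls against normal skin were lost in 5 alternatives each. High-risk papillomas gave 2.04 when the array set was a block, 2.76 when the database number range was, and 1.73, 1.36 and 2.90 within sets A, C and D. Carcinomas gave 2.64 and 2.79 with those blocks and 1.25 and 3.98 within sets C and D. The small difference of carcinomas from high-risk papillomas turned to 0.60 and 0.021 with those blocks, 0.14 without the near-identical pair and 1.08 within set D, and that of low-risk papillomas from normal skin to -0.34 with the set block. Without 1 replicate, carcinomas differed from high-risk papillomas by -0.46 to 0.14, and from normal skin by 3.05 to 3.74.

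Hba-a1 differences between tumour groups turned sign. Carcinomas against low-risk papillomas gave 0.0054 without centring, 0.0014 without the swapped array, and -0.23 to 0.24 without 1 replicate. Against high-risk papillomas they gave -0.14 with equal spread, -0.081 with quantile normalisation, -0.10 with array weights and within set D, -0.18 with array SD, and -0.054 to 0.48 without 1 replicate. High-risk against low-risk papillomas gave 0.020 with array weights and 0.087 within set D. The slope of Hba-a1 on Hbb-b2 was 0.11 to 0.70 over 12 alternatives. Other slopes turned sign with equal spread (Alas2 -0.059, Car2 -0.065, Bpgm -0.047, Slc4a1 0.043, Hamp -0.015), with quantile normalisation (Alas2 -0.012, Slc4a1 0.022) and for Hamp with no group term (-0.079). Members called in the association numbered 0 in all 12 alternatives and all 31 refits without 1 replicate. Hamp turned to 0.060 for carcinomas against high-risk papillomas with array weights, 1.84 for high-risk against low-risk papillomas within set D, and -0.052 and -0.18 for high-risk papillomas and carcinomas against normal skin within set C. The call was lost in 8 of 18 alternatives for Alas2 in low-risk papillomas, 8 of 19 for Bpgm in high-risk papillomas, 2 of 17 for Car2 and 5 of 19 for Hba-a1 in low-risk papillomas. For Hamp it was lost in 6 of 19 in carcinomas against low-risk papillomas and in 2 of 19 in low-risk papillomas over normal skin. Hba-a1 became called over normal skin in 6 of 21 alternatives in high-risk papillomas and 3 of 20 in carcinomas. The cause of these changes was not tested.

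Replicate numbers did not pair samples: same-numbered samples correlated at a median of -0.02 over 37 pairs, others at 0.01. With the replicate block Hbb-b2 differed by 2.87 and 2.53 in high-risk papillomas and carcinomas from low-risk papillomas, Hba-a1 in low-risk papillomas from normal skin by 1.79 (limma adjusted p = 0.0591), and the slope of Hamp turned to -0.0051. Probes called over the whole table moved more. Against 126 between high-risk and low-risk papillomas the alternatives gave 0 to 1119, against 212 between carcinomas and low-risk papillomas 0 to 1592, and against 8 between carcinomas and high-risk papillomas 0 to 291. Over normal skin they gave 7 to 4218 in low-risk papillomas (1427 as reported), 0 to 3793 in high-risk papillomas (948) and 0 to 3400 in carcinomas (219), and in the association 0 to 447 (3).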

Other observations

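Markers of other cell types in the same samples gave these values. Among 13 leukocyte genes, S100a9, a calprotectin subunit of neutrophils and of stressed keratinocytes, was above normal skin by 5.62 ± 0.47 in low-risk papillomas, 6.18 ± 0.51 in high-risk papillomas and 4.35 ± 0.57 in carcinomas (SE, limma adjusted p = 1.342e-07, 2e-07 and 0.000158). Its partner S100a8 was above normal skin by 4.47 ± 0.71 and 4.03 ± 0.69 in low-risk and high-risk papillomas (SE, limma adjusted p = 0.000332 and 0.00109). Fcer1g, an Fc receptor chain, was higher in low-risk papillomas and Cd3e, of T cells, lower there. Tyrobp and Cd79a were lower in high-risk papillomas than in normal skin. Lyz1, lysozyme, was higher in carcinomas than in low-risk papillomas by 2.14 ± 0.47 (SE, limma adjusted p = 0.0211).

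Of 13 endothelial genes 1 was called in each of 2 comparisons, both lower than in normal skin, Pecam1 in low-risk papillomas by -1.07 ± 0.34 and Ramp2 in high-risk papillomas by -1.50 ± 0.42 (SE, limma adjusted p = 0.0491 and 0.0325). Of all probes 7.55% and 5.01% were called in these 2 comparisons. Of 13 epidermal genes Sfn and Pkp1, of the differentiating epidermis and its desmosomes, were higher in high-risk papillomas than in normal skin by 2.75 ± 0.53 and 2.37 ± 0.67 (SE, limma adjusted p = 0.00398 and 0.0395).

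On the second design the embryonic beta globin Hbb-bh1, measured in 8 of the 10 unknown papillomas, ran from 1.09 to 11.11 with a median of 2.97. Its values of 11.11 and 10.47 were those of unknown papillomas 5 and 6, which are among the 4 arrays of widest spread. The next highest was 3.965, in papilloma 2. The probe of Hamp2, the second hepcidin gene, ran from -0.09 to 2.68 in all 10.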
